A study of Mus musculus with 6 samples.

Results

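The 40 genes described here encode proteins that fold, refold or remove other proteins: 26 genes of the endoplasmic reticulum (ER) and the unfolded protein response, and 14 heat shock genes of the cytosol and the mitochondria with their transcription factor Hsf1. They were chosen by symbol from a fixed list. All 40 were found among the 55421 genes of the count table, and all 40 passed the filter on low counts. The study asked what Ddit4, a stress-induced inhibitor of mTOR signaling, does in acute myeloid leukemia of the mouse driven by AML1-ETO9a (AE9a). Bone marrow c-Kit+ progenitors of C57BL/6 donors aged 6 to 8 weeks, either Ddit4+/+ or Ddit4-/-, had received AE9a with GFP on a retrovirus and had been passed through irradiated C57BL/6 recipients. The labels add that leukemia cells from the bone marrow were kept in IMDM medium with 10% FBS. RNA-seq libraries were made from 3 samples of AE9a-Ddit4+/+ and 3 of AE9a-Ddit4-/- leukemia cells. By their labels both groups carry AE9a, and the knockout came with the donor mice rather than being made in the cells. The sources do not say whether the 3 samples of a group came from separate leukemias. Fewer knockout recipients of the primary cohort became leukemic than there are knockout libraries, so these cannot all be separate primary leukemias of that cohort. The p values therefore measure the spread between these libraries only.

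Proteins that enter the ER are folded there by the HSP70-type chaperone BiP (Hspa5), its co-chaperones and the protein disulfide isomerases, and misfolded chains are sent back to the cytosol for degradation (ERAD). When unfolded chains pile up, the membrane sensors IRE1 (Ern1), PERK (Eif2ak3) and ATF6 set off the unfolded protein response. Spliced XBP1 and cleaved ATF6 then raise chaperone and ERAD genes through the ER stress response element (ERSE), while HSF1 does the like for cytosolic chaperones through heat shock elements (HSE). Plasma cells depend on this response for secretion, and it also acts in blood stem and progenitor cells.

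These elements were searched from 250 bases before to 50 bases after each start that RefSeq gives on GRCm38.p6, on both strands. Of the 40 genes, 31 matched an entry, with 37 windows. The ERSE was read as CCAAT followed, after any 9 bases, by CCACG. It was present in 8 of the 31 genes (Hspa5, Hsp90b1, Canx, Pdia6, Dnajc3, Creld2, Syvn1 and Derl3) and in 0.119% of all 32851 windows. The related ERSE-II (ATTGG, any 1 base, CCACG) was present in Herpud1 and Dnajb11 and in 0.0365% of all windows, and the core TGACGTG of the unfolded protein response element was present in Hspa5 and in 2.01%. An HSE (GAA, TTC and GAA in a row, or TTC, GAA and TTC, each 2 bases apart) was present in Hspd1, Hspe1 and Hsph1 and in 0.603%. No ERSE shares its letters with another of these motifs in a member. The matches are shown because ER genes with and without an ERSE are compared below, and capitals mark the motif. Each stretch is written 5′ to 3′ on the gene's own strand.
Hspa5, unfolded protein response element, chr2:34771918-34771954 (+): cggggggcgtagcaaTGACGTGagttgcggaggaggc
Hspa5, ERSE, chr2:34772020-34772048 (+): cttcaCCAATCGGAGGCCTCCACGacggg
Hsp90b1, far ERSE, chr10:86705623-86705671 (-): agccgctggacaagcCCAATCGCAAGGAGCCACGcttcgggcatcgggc
Hsp90b1, near ERSE, reverse, chr10:86705518-86705566 (-): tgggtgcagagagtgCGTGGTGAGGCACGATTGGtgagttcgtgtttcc
Canx, ERSE, chr11:50325785-50325833 (-): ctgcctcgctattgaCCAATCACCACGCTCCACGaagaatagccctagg
Pdia6, ERSE, chr12:17266476-17266524 (+): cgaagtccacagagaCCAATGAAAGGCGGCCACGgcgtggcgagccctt
Dnajc3, ERSE, chr14:118937812-118937860 (+): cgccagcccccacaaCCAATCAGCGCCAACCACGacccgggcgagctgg
Creld2, ERSE, reverse, chr15:88819505-88819553 (+): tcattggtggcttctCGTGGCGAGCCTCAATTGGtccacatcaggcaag
Syvn1, ERSE, chr19:6046517-6046565 (+): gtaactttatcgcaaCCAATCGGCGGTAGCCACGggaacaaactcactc
Derl3, ERSE, reverse, chr10:75893227-75893275 (+): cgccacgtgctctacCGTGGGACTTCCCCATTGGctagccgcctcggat
Herpud1, ERSE-II, chr8:94386362-94386402 (+): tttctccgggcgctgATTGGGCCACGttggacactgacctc
Hspe1 and Hspd1, overlapping HSE, chr1:55088053-55088082 (+, the strand of Hspe1): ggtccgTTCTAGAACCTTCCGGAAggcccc
Most of these stretches lie upstream of every annotated exon. The ERSE of Hspa5 overlaps an exon of Hspa5 itself in GENCODE M21, which starts the gene further upstream than RefSeq, and the shared HSE overlaps an exon of Hspd1.

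Library totals ran from 62141558 to 72717681 counts and did not separate the groups (exact two-sided permutation test, n = 3 each, p = 0.5). Genes detected did not overlap, at 21097 to 21892 in AE9a-Ddit4+/+ and 22877 to 23771 in AE9a-Ddit4-/- libraries (exact permutation test, p = 0.1). Nor did the share of mitochondrially encoded reads, at 5.03% to 7.90% and 11.3% to 16.4% (exact permutation test, p = 0.1). This p is the smallest that 3 against 3 libraries can give. In Ddit4 itself, which checks the labels, the 3 AE9a-Ddit4-/- libraries held 77.6 to 85.8 CPM (counts scaled to a total of 1000000) against 161 to 341 CPM in the AE9a-Ddit4+/+ libraries (log2 fold change -1.56, edgeR adjusted p 0.00635, SE 0.28). Reads thus remained over the targeted gene, and the deleted part was not analysed here. The genotypes also differed in sex. Ddx3y, on the Y chromosome, was at most 0.0773 CPM in AE9a-Ddit4+/+ and at least 88.1 CPM in AE9a-Ddit4-/- libraries, while Xist ranged from 565 to 1032 and from 20.3 to 129 CPM, so that genotype and sex of the cells cannot be told apart. Markers of other cells moved as well. Summed erythroid markers (11 of 12 lower) ranged from 8021 to 16644 CPM in AE9a-Ddit4+/+ and from 376 to 974 CPM in AE9a-Ddit4-/- libraries, and neutrophil markers (4 of 12 lower) from 7666 to 12556 and from 1947 to 5475 CPM. Megakaryocyte (7 of 10 higher, 1 lower), mast cell (4 of 10), stroma (5 of 10), B cell (6 of 8) and T and NK cell markers (11 of 12) were higher in AE9a-Ddit4-/- libraries, and monocyte markers overlapped (1 of 10 higher). Kit marks the progenitors that were infected, and the study describes the leukemia of its transplantable AE9a model as c-Kit-positive and lineage-negative. Kit was at 14.6 to 31.6 CPM in AE9a-Ddit4+/+ and at 304 to 508 CPM in AE9a-Ddit4-/- libraries. The progenitor gene Cd34 was at 2.26 to 9.82 CPM and at 493 to 558 CPM. Runx1t1, whose sequence is the ETO part of the fusion, ranged from 6.47 to 18.1 CPM and from 69.8 to 205 CPM (log2 fold change 3.55, edgeR adjusted p 0.00295). The part of this shift in cell makeup in the values below was not tested. In bulk RNA, fewer cells of a type and less RNA per cell cannot be told apart.

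Few of the ER genes differed by genotype beyond the spread of the libraries. Of the 26, 1 was called lower (Selenos) and 0 higher in AE9a-Ddit4-/- leukemia, where called means a Benjamini-Hochberg adjusted p below 0.05 over all 18375 genes tested in edgeR's quasi-likelihood test. Of all genes tested, 30.1% were called, 19.4% as higher and 10.7% as lower, and of the 8218 genes of average log2 CPM over 4, 32.2%. At an unadjusted p below 0.05, 1 ER gene was higher and 3 were lower, and DESeq2 called 0 higher and 2 lower (Selenos and Derl2). Their median log2 fold change was -0.21, against -0.17 over these 8218 genes and 0.04 over all genes tested. Without AE9a-Ddit4+/+ replicate 2 the number called lower was 5, with Hspa5, Hsp90b1, Manf and Herpud1 added, and without any other library it was 0. The median turned to 0.040 without AE9a-Ddit4+/+ replicate 1. Of the 14 heat shock genes, 1 was called higher (Hspb1) and 2 lower (Hsph1 and Bag3), with a median log2 fold change of -0.74. DESeq2 called 1 higher and 5 lower. Of all 18375 genes tested, DESeq2 called more than edgeR, 4348 as higher and 2749 as lower against 3560 and 1975.

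**Figure D1:**
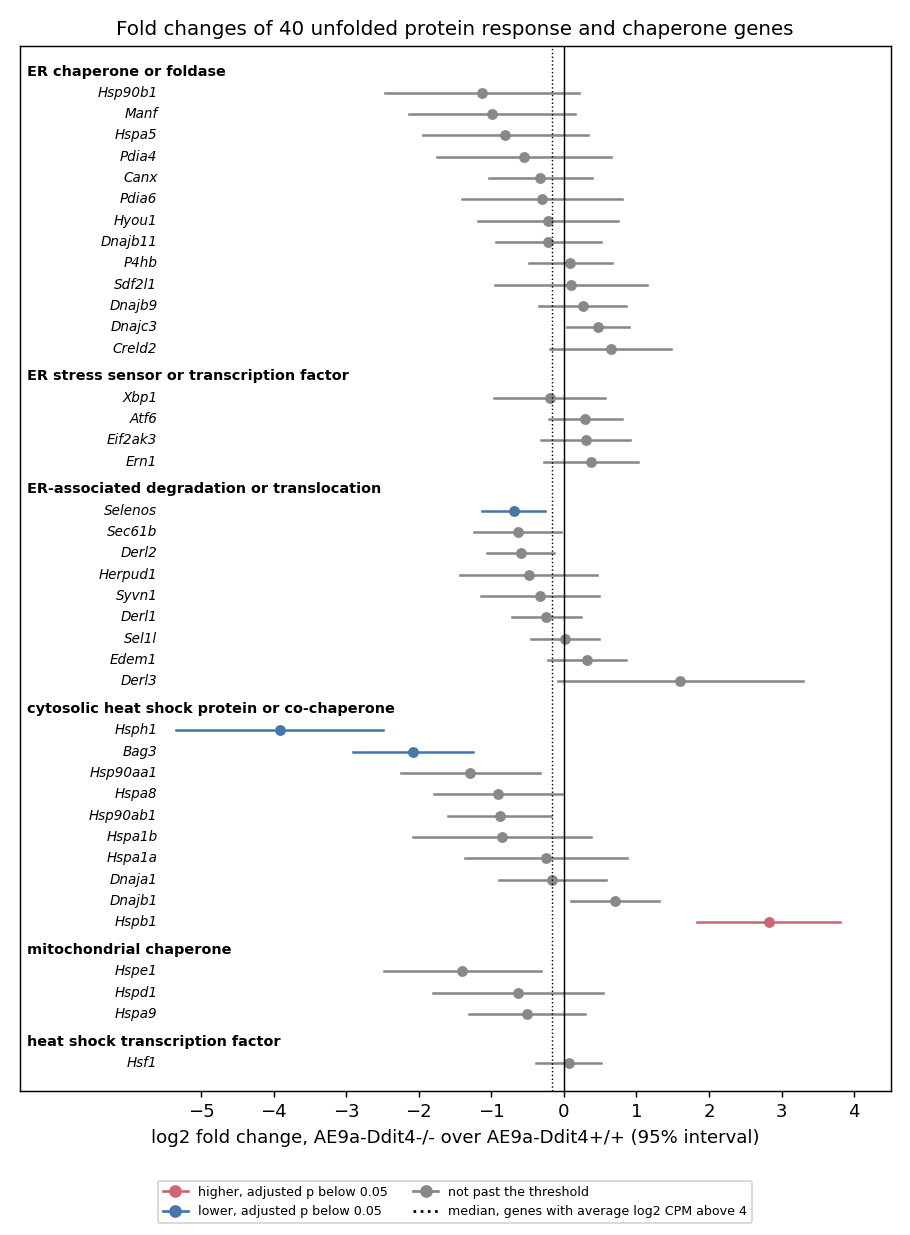
Log2 fold change of each of the 40 genes, AE9a-Ddit4-/- over AE9a-Ddit4+/+, with its 95% interval from edgeR, in 6 groups by role (points and bars are blue where lower, red where higher and grey where not past the threshold, and the dotted line is the median of -0.17 of genes of average log2 CPM over 4). Only 4 intervals belong to called genes, from -3.91 for Hsph1 to 2.83 for Hspb1, and most ER chaperone intervals span 0.

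Of the 13 ER chaperones and foldases, 0 were called by edgeR and 0 by DESeq2, and 1 (Dnajc3) had an unadjusted p below 0.05 in edgeR. Their log2 fold changes ran from -1.12 (Hsp90b1) to 0.64 (Creld2), with a median of -0.21. Hspa5 encodes BiP, the chief ER chaperone, and was the most abundant of the 40 genes per length of exon, at 1172 RPKM (CPM per kilobase of exon) in AE9a-Ddit4+/+ and 670 RPKM in AE9a-Ddit4-/- cells. It stood at 4892, 2017 and 7960 CPM in AE9a-Ddit4+/+ replicates 1, 2 and 3 and at 2570, 3988 and 1940 CPM in AE9a-Ddit4-/- replicates 1, 2 and 3. The AE9a-Ddit4+/+ values thus spread 3.95-fold, and their lowest library lay among the AE9a-Ddit4-/- libraries. The log2 fold change of -0.81 (SE 0.49) did not pass the threshold (edgeR adjusted p 0.251), and its 95% interval reached from -1.95 to 0.33.

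Hsp90b1 encodes GRP94, the HSP90 of the ER, and had the largest difference of the ER chaperones. It was at 913, 284 and 1324 CPM in AE9a-Ddit4+/+ replicates 1 to 3 and at 260, 622 and 274 CPM in AE9a-Ddit4-/- replicates 1 to 3. The second replicate was the lowest of its genotype in AE9a-Ddit4+/+ and the highest in AE9a-Ddit4-/- cells, as for Hspa5, and the groups overlapped. The log2 fold change was -1.12 (edgeR adjusted p 0.178, SE 0.57, 95% interval -2.46 to 0.21). Up to 10.3% of its exon length is shared with a gene on the other strand (1810014B01Rik, 29.0 and 15.1 CPM), and the use of strand in counting is not given in the sources used here. P4hb, the main protein disulfide isomerase, was at 871, 526 and 639 CPM in AE9a-Ddit4+/+ and 569, 795 and 801 CPM in AE9a-Ddit4-/- libraries. These ranges overlapped almost fully, and its log2 fold change of 0.09 had an interval of -0.48 to 0.66, within a 2-fold difference either way.

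Manf, a secreted BiP partner, had a log2 fold change of -0.99 (edgeR adjusted p 0.165, SE 0.49), on means of 164 ± 83.0 and 82.6 ± 40 CPM (SD, n = 3 each, wild type before knockout here and below). Of its 3524 exon bases, 146 are shared with Dcaf1 (61.9 and 21.2 CPM) and 166 with 4930524O07Rik, both on the other strand. A further 14 are shared with Rbm15b (81.7 and 47.3 CPM) on the same strand. The disulfide isomerases Pdia4 and Pdia6 had log2 fold changes of -0.55 and -0.30, the lectin chaperone Canx -0.32, the large ER chaperone Hyou1 -0.21 and the BiP co-chaperones Dnajb11 and Dnajb9 -0.21 and 0.26. Sdf2l1, which works with Dnajb11, had 0.10. Dnajc3, which encodes the PERK inhibitor p58IPK and BiP co-chaperone, did not overlap between the groups, at 114, 109 and 95.3 CPM against 146, 167 and 127 CPM. All 3 AE9a-Ddit4-/- libraries were the higher ones, yet the log2 fold change of 0.47 (SE 0.18) missed the threshold (edgeR adjusted p 0.0895). Creld2, an ER stress-induced isomerase, had 0.64 (edgeR adjusted p 0.215, SE 0.36), on means of 45.3 ± 15 and 70.7 ± 27.5 CPM.

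**Figure D2:**
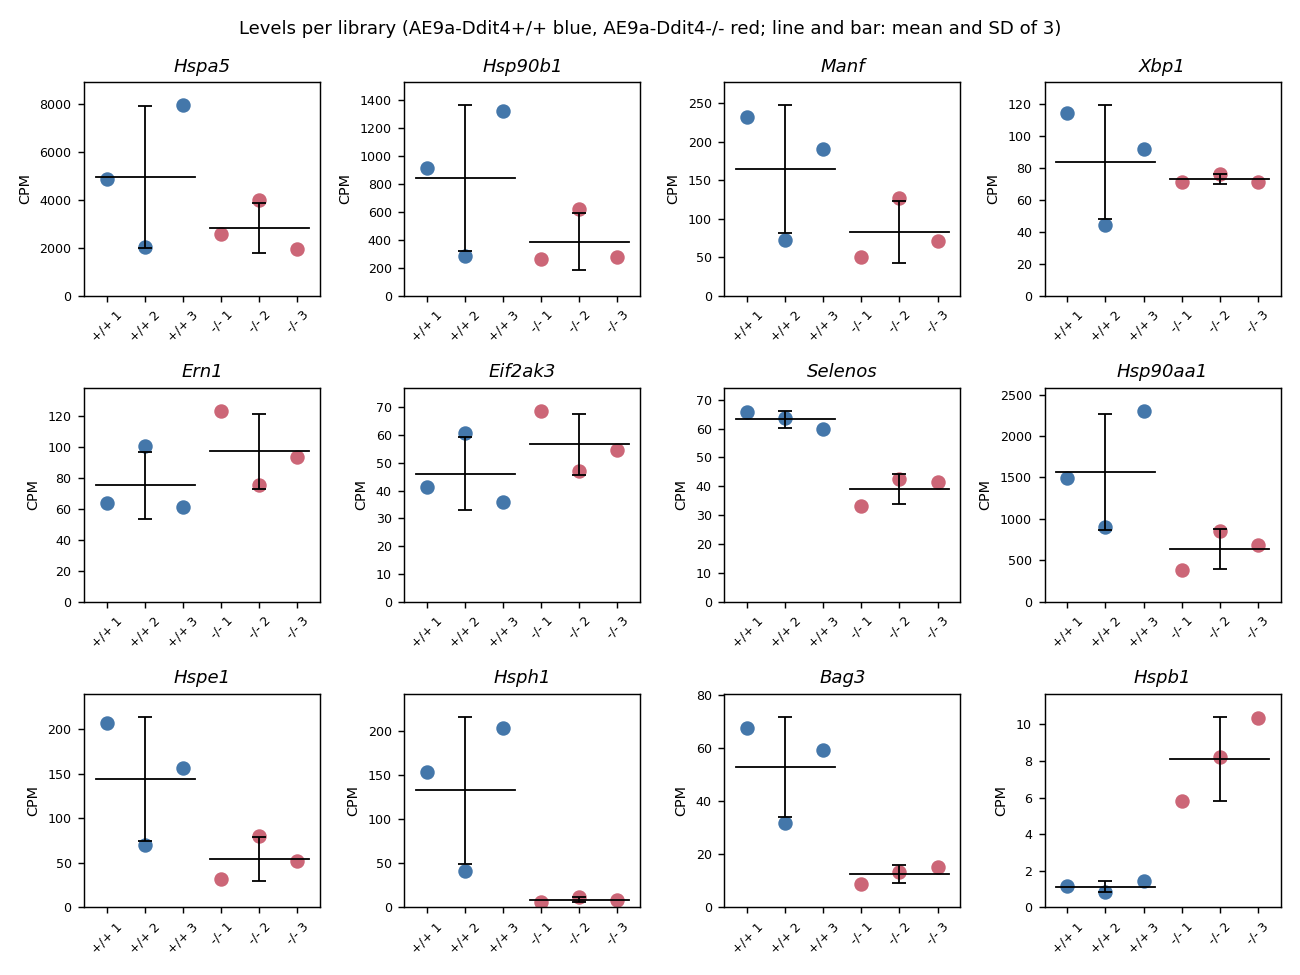
CPM of 12 of the genes in each of the 6 libraries (blue AE9a-Ddit4+/+, red AE9a-Ddit4-/-, each axis from 0), where line and bar give the mean and SD of 3 libraries. In Hspa5, Hsp90b1 and Manf the second replicate is the lowest of the AE9a-Ddit4+/+ and the highest of the AE9a-Ddit4-/- libraries, and in Ern1 and Eif2ak3 it is the reverse. In Selenos, Hsph1, Bag3 and Hspb1 the genotypes are apart, and in Hsp90aa1 they do not overlap but nearly meet.

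Of the 3 sensors and Xbp1, edgeR and DESeq2 called 0, and 0 had an unadjusted p below 0.05 in edgeR. Xbp1, the transcription factor whose mRNA IRE1 splices, was at 115, 44.4 and 91.9 CPM in AE9a-Ddit4+/+ replicates 1 to 3 and at 71.3, 76.5 and 71.4 CPM in AE9a-Ddit4-/- replicates. The AE9a-Ddit4-/- libraries lay close together between the AE9a-Ddit4+/+ extremes (log2 fold change -0.19, edgeR adjusted p 0.689, SE 0.33). Gene counts do not tell the spliced from the unspliced Xbp1 mRNA. Atf6, the sensor that becomes a transcription factor on cleavage, was at 115, 79.1 and 79.9 CPM and at 96.0, 119 and 121 CPM (log2 fold change 0.30, edgeR adjusted p 0.334, SE 0.22). The AE9a-Ddit4+/+ replicate 1 reached the AE9a-Ddit4-/- range.

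Ern1 and Eif2ak3, which encode the kinases IRE1 and PERK, had another order of libraries than the chaperones. Ern1 was at 63.8, 100 and 61.0 CPM in AE9a-Ddit4+/+ replicates 1 to 3 and at 123, 75.2 and 93.1 CPM in AE9a-Ddit4-/- replicates. Eif2ak3 was at 41.1, 60.9 and 35.9 CPM and at 68.6, 47.0 and 54.5 CPM. In both, the second replicate was the highest of the AE9a-Ddit4+/+ and the lowest of the AE9a-Ddit4-/- libraries. The log2 fold changes were 0.37 (95% interval -0.27 to 1.02, edgeR adjusted p 0.344) for Ern1 and 0.30 (95% interval -0.31 to 0.92, edgeR adjusted p 0.422) for Eif2ak3.

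Of the 9 genes of ERAD and translocation, 1 was called lower and 0 higher, with a median log2 fold change of -0.32. At an unadjusted p below 0.05, 0 were higher and 3 lower, and DESeq2 called 0 higher and 2 lower. Selenos (ENSMUSG00000075701, plus strand, chr7:66079649-66089405 on GRCm38) encodes selenoprotein S, an ER membrane protein that ties the ATPase p97 to the derlins. It was at 65.7, 63.8 and 60.0 CPM in AE9a-Ddit4+/+ and at 33.2, 42.5 and 41.4 CPM in AE9a-Ddit4-/- libraries. The groups did not overlap, and the wild-type values lay within 1.09-fold of each other. Selenos fell by 0.69 on the log2 scale (edgeR adjusted p 0.0278, SE 0.19). Its adjusted p was 0.0508 to 0.0785 when any library but AE9a-Ddit4+/+ replicate 2 was left out.

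Derl2, Sec61b and Derl3 did not overlap between the groups either, but missed the threshold. Derl2, part of the channel through which ERAD clients leave the ER, was at 41.7, 38.6 and 44.6 CPM against 28.2, 23.7 and 30.7 CPM, a log2 fold change of -0.60 (edgeR adjusted p 0.0578, SE 0.20, DESeq2 adjusted p 0.0166). All 3 AE9a-Ddit4-/- libraries were the lower ones, and 231 bases of its exons are shared with Mis12 on the other strand. Sec61b, a subunit of the channel through which new chains enter the ER, was at 88.1, 69.4 and 73.2 CPM against 33.3, 59.0 and 56.0 CPM (log2 fold change -0.64, edgeR adjusted p 0.101, SE 0.26). Derl3, a derlin of secretory cells and the least abundant of the 40 genes per length, had 0.269, 0.206 and 0.804 CPM against 0.899, 2.19 and 0.815 CPM. Its log2 fold change was 1.60 (edgeR adjusted p 0.134, SE 0.72). AE9a-Ddit4+/+ replicates 1 and 2 lay near the 0.165 to 0.193 CPM that 12 counts make. The other libraries held 52 to 133 counts, and the nearest libraries of the groups were almost level. Of the 26 ER genes, 2 did not overlap as higher (Dnajc3 and Derl3) and 3 as lower, against 27.9% and 22.2% (50.1% in all) of the genes tested.

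Herpud1, an ER stress-induced membrane protein that recruits ERAD clients, was at 401, 172 and 571 CPM in AE9a-Ddit4+/+ and 250, 335 and 234 CPM in AE9a-Ddit4-/- libraries. It had the order of libraries of Hspa5, with overlap, and a log2 fold change of -0.48 (edgeR adjusted p 0.406, SE 0.40). The ubiquitin ligase Syvn1 had -0.32, its partner Sel1l 0.01, the derlin Derl1 -0.24 and the mannosidase-like Edem1 0.32. For 10 of the 25 ER genes that were not called, P4hb, Sel1l and Derl1 among them, the 95% interval lay within a 2-fold difference in either direction and for the others it also held larger differences.

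The spread within each genotype was wider in the ER chaperones than over the genes of average log2 CPM over 4. It was not particular to the ER chaperones. The highest library exceeded the lowest 2.16-fold in the median ER chaperone in AE9a-Ddit4+/+ and 2.06-fold in AE9a-Ddit4-/- cells, against 1.46-fold and 1.43-fold over the genes of average log2 CPM over 4. The median mitochondrial chaperone spread further, 2.96-fold in AE9a-Ddit4+/+ and 2.54-fold in AE9a-Ddit4-/- cells. The median cytosolic heat shock gene spread further than the median ER chaperone in AE9a-Ddit4+/+ cells. In AE9a-Ddit4-/- cells it spread less far (1.89-fold). The spread of the ER chaperones had a common order. The AE9a-Ddit4+/+ replicate 2 was the lowest of its genotype in 11 of the 13 ER chaperones and the AE9a-Ddit4-/- replicate 2 the highest in 10. Of the genes of average log2 CPM over 4, these were 41.1% and 35.5%. Both held in 9 of the 13, against 20.5%. The same order was found in 4 of the 9 genes of ERAD and translocation. It was also found in 5 of the 10 cytosolic heat shock genes and in the 3 mitochondrial chaperones. The median ER chaperone lay 0.68 below the mean of its genotype (log2) in AE9a-Ddit4+/+ replicate 2 and 0.56 above it in AE9a-Ddit4-/- replicate 2. The same median over the genes of average log2 CPM over 4 was -0.02 and 0.04, but scaling of the libraries keeps such a median near 0. The quartiles of these genes were -0.24 and 0.22 in AE9a-Ddit4+/+ replicate 2 and -0.14 and 0.20 in AE9a-Ddit4-/- replicate 2. The 2 exceptions in AE9a-Ddit4+/+ cells were Dnajb9 and Dnajc3. These orders are a description over genes of the same 6 libraries, with no test.

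**Figure D3:**
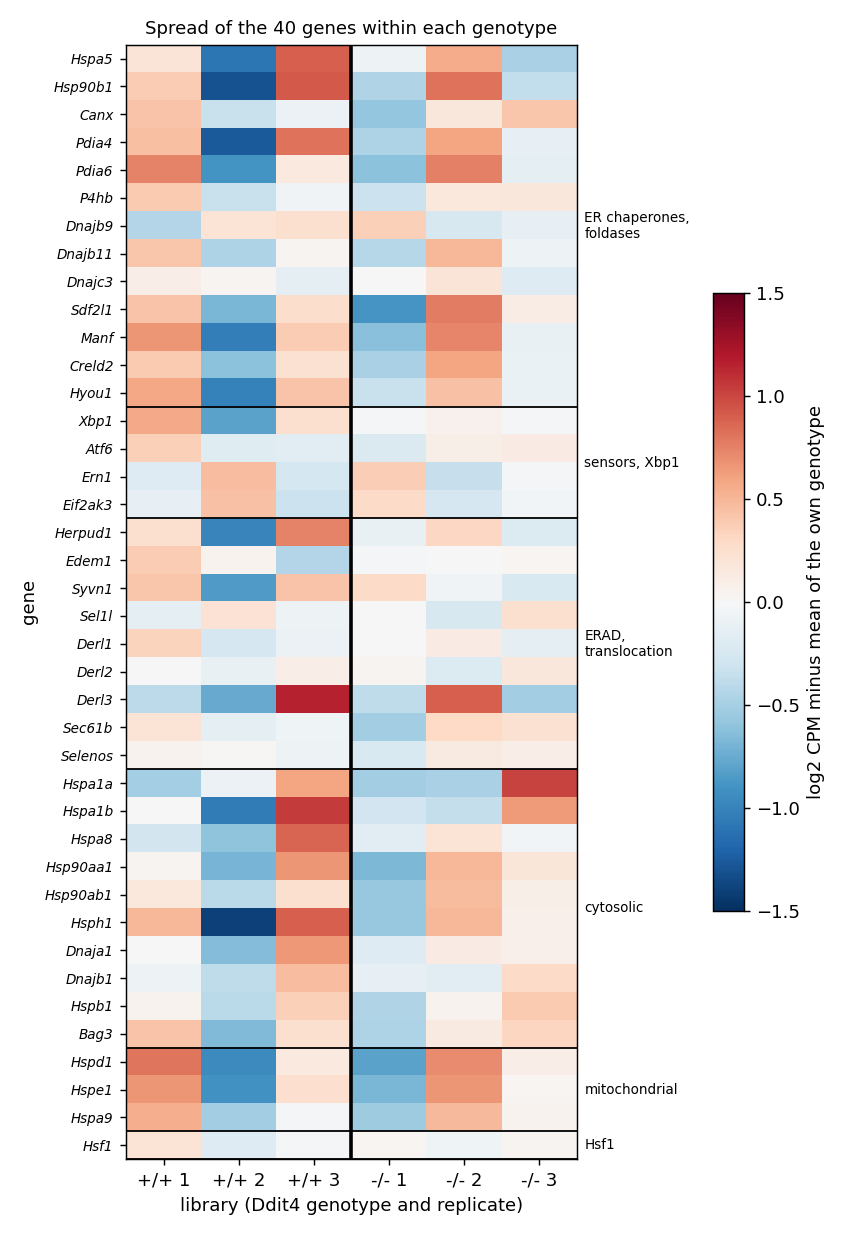
Heat map of log2 CPM minus the mean of the library's own genotype, with the 40 genes as rows in groups by role and the 6 libraries as columns (red above, blue below the mean of the genotype). The column of AE9a-Ddit4+/+ replicate 2 is blue in 11 of 13 ER chaperones and in the 3 mitochondrial chaperones, that of AE9a-Ddit4-/- replicate 2 is the highest of its genotype in 10 of the 13, and Ern1 and Eif2ak3 have the opposite colors.

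Summed over the 26 ER genes, the libraries held 9755, 4671 and 12697 CPM in AE9a-Ddit4+/+ replicates 1 to 3 and 5382, 8015 and 5194 CPM in AE9a-Ddit4-/- replicates 1 to 3. Hspa5 supplied the largest part of each sum. AE9a-Ddit4+/+ replicate 2 was thus the lowest of all 6 libraries, below each of the AE9a-Ddit4-/- libraries. It also held the largest share of mitochondrially encoded reads of its genotype (7.90%, against a lowest share of 5.03%), as did AE9a-Ddit4-/- replicate 2 (16.4%, against 11.3%). Plasma cell markers, whose cells are rich in ER chaperones, summed to 238, 87.3 and 34.1 CPM in AE9a-Ddit4+/+ and 560, 1524 and 719 CPM in AE9a-Ddit4-/- replicates 1 to 3, with 6 of the 9 tested called higher. AE9a-Ddit4-/- replicate 2 was the highest in these too, but AE9a-Ddit4+/+ replicate 3, with the highest ER sum, was the lowest. Megakaryocyte markers had the order of the ER chaperones at the second replicates (131, 106 and 171 CPM, then 2573, 3043 and 2289 CPM). The reverse held for monocyte markers and for neutrophil markers (8866, 12556 and 7666 CPM, then 3968, 1947 and 5475 CPM). It also held for immediate early genes (3334, 12105 and 10125 CPM, then 23520, 16004 and 18937 CPM). The defining plasma cell gene Tnfrsf17 was at 0 in 5 of the 6 libraries, and Mzb1 was at 0 to 0.269 CPM and 2.04 to 2.78 CPM. The part of these measures in the ER chaperone values was not tested.

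Among the ER genes with a window, the 8 that hold an ERSE had a median log2 fold change of -0.31 (-1.12 to 1.60), and 0 of them were called by edgeR. The 14 without one, which include Herpud1 and Dnajb11 with their ERSE-II, had a median of -0.09, and 1 was called (Selenos). In AE9a-Ddit4+/+ replicate 2, 7 of the 8 and 8 of the 14 were at their lowest for the genotype, and in AE9a-Ddit4-/- replicate 2, 6 of the 8 and 7 of the 14 were at their highest. Outside the 40 genes, 29 further genes held the ERSE letters, of which 11 could be tested. Of these 11, 3 were called higher and 0 lower, and 3 were at their lowest in AE9a-Ddit4+/+ replicate 2.

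The cytosolic heat shock genes held the largest differences of the 40. Of 10, 2 were called lower and 1 higher, a share near the 30.1% of all genes tested, and 5 were lower and 2 higher at an unadjusted p below 0.05. Hsph1 (ENSMUSG00000029657, minus strand, chr5:149614287-149636376) encodes HSP105, a nucleotide exchange factor of HSP70. It was at 154, 41.0 and 203 CPM in AE9a-Ddit4+/+ replicates 1 to 3 and at 5.65, 11.8 and 8.90 CPM in AE9a-Ddit4-/- replicates. Every AE9a-Ddit4-/- library was below the lowest AE9a-Ddit4+/+ library, although the latter spread 4.95-fold. Hsph1 fell by 3.91 on the log2 scale (edgeR adjusted p 0.00368, SE 0.61), a fitted 15.1-fold difference. Under every alternative run its log2 fold change stayed between -4.34 and -3.47 and past the threshold of 0.05.

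Bag3 (ENSMUSG00000030847, plus strand, chr7:128523616-128546981) encodes a co-chaperone that links HSP70 to selective autophagy. It was at 67.6, 31.9 and 59.4 CPM in AE9a-Ddit4+/+ and at 8.84, 13.4 and 15.3 CPM in AE9a-Ddit4-/- libraries. The groups were apart, with AE9a-Ddit4+/+ replicate 2 again the lowest of its genotype. Bag3 fell by 2.08 (edgeR adjusted p 0.00503, SE 0.35), a fitted 4.23-fold difference. Hspb1 (ENSMUSG00000004951, plus strand, chr5:135887919-135889563) encodes the small heat shock protein HSP27. It was at 1.16, 0.840 and 1.44 CPM in AE9a-Ddit4+/+ and at 5.79, 8.21 and 10.4 CPM in AE9a-Ddit4-/- libraries, again apart. Hspb1 rose by 2.83 (edgeR adjusted p 0.00303, SE 0.42), a fitted 7.09-fold difference, from a level of 1.11 RPKM to 7.88 RPKM. Hsph1, Bag3 and Hspb1 thus went in different directions although all are heat shock genes.

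The abundant cytosolic chaperones lay lower in AE9a-Ddit4-/- libraries without passing the threshold. Hsp90aa1, the inducible HSP90, was at 1498, 896 and 2301 CPM in AE9a-Ddit4+/+ and at 379, 856 and 686 CPM in AE9a-Ddit4-/- libraries. The groups did not overlap, but AE9a-Ddit4+/+ replicate 2 and AE9a-Ddit4-/- replicate 2 were almost level. The log2 fold change of -1.29 (SE 0.41, 95% interval -2.25 to -0.33) had an edgeR adjusted p of 0.0504, next to the threshold, and passed it in 4 of 15 alternatives, among them DESeq2 (adjusted p 0.0161). Hsp90ab1, the constitutive HSP90, was at 3408, 2310 and 3585 CPM against 1087, 2239 and 1718 CPM. It had the same order of libraries and no overlap, with a log2 fold change of -0.88 (edgeR adjusted p 0.0639, SE 0.30).

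Hspa8, the constitutive HSP70, was at 1363, 1083 and 3009 CPM against 856, 1115 and 938 CPM, which overlapped because of AE9a-Ddit4+/+ replicate 2 (log2 fold change -0.91, edgeR adjusted p 0.111, SE 0.38). The J-domain co-chaperone Dnaja1 was at 257, 164 and 403 CPM against 215, 267 and 258 CPM, with a log2 fold change of -0.16 (95% interval -0.90 to 0.58). Dnajb1, the stress-induced J-domain partner of HSP70, went the other way, at 128, 104 and 186 CPM against 207, 201 and 274 CPM. Its groups did not overlap, and the log2 fold change was 0.71 (edgeR adjusted p 0.0777, SE 0.26). The inducible HSP70 genes Hspa1a and Hspa1b had log2 fold changes of -0.25 and -0.85 with intervals that spanned 0. They are nearly identical copies, so the split of reads between them is uncertain.

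The 3 mitochondrial chaperones were not called by edgeR, while DESeq2 called Hspe1 lower and 1 (Hspe1) had an unadjusted p below 0.05. Hspe1, the HSP10 lid of the HSP60 chamber, had the largest difference, with a log2 fold change of -1.40 (edgeR adjusted p 0.0567, SE 0.46, DESeq2 adjusted p 0.0179), on means of 145 ± 69.4 and 54.8 ± 24.5 CPM. Hspd1, HSP60 itself, was at 593, 175 and 376 CPM against 128, 366 and 242 CPM (log2 fold change -0.64, edgeR adjusted p 0.375, SE 0.50). Hspa9, the mitochondrial HSP70, was at 535, 255 and 362 CPM against 179, 362 and 270 CPM (log2 fold change -0.51, edgeR adjusted p 0.303, SE 0.34). All 3 had AE9a-Ddit4+/+ replicate 2 as the lowest and replicate 1 as the highest of the wild type, and AE9a-Ddit4-/- replicate 1 as the lowest and replicate 2 as the highest of the knockout. Hspd1 and Hspe1 lie head to head and share 112 bases of exon on opposite strands, and the HSE printed above lies upstream of Hspe1 within an exon of Hspd1. Annotated copies of Hspd1 (5, at most 14.8 CPM each) and of Hspe1 (7, at most 5.11 CPM each) could share reads with them.

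Hsf1, the master regulator of the heat shock response, was at 45.8, 35.0 and 39.5 CPM in AE9a-Ddit4+/+ and at 42.8, 40 and 43.1 CPM in AE9a-Ddit4-/- libraries. These ranges overlapped, and the log2 fold change of 0.07 (edgeR adjusted p 0.823, SE 0.19) had a 95% interval of -0.38 to 0.51. Of the 14 heat shock genes, 2 did not overlap as higher (Hspb1 and Dnajb1) and 4 as lower (Hsph1, Bag3, Hsp90aa1 and Hsp90ab1), beside 27.9% and 22.2% of all genes tested. AE9a-Ddit4+/+ replicate 2 was the lowest of its genotype in 13 of the 14. Within the 10 cytosolic genes AE9a-Ddit4+/+ replicate 3 was the highest in 9 and AE9a-Ddit4-/- replicate 1 the lowest in 8, an order that the mitochondrial genes had in part. Summed over the 14 genes, the libraries held 8370, 5257 and 10919 CPM in AE9a-Ddit4+/+ replicates 1 to 3 and 3214, 5628 and 4679 CPM in AE9a-Ddit4-/- replicates. These sums overlapped through the second replicates, while those of the ER genes overlapped through AE9a-Ddit4+/+ replicate 2 alone.

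**Figure D4:**
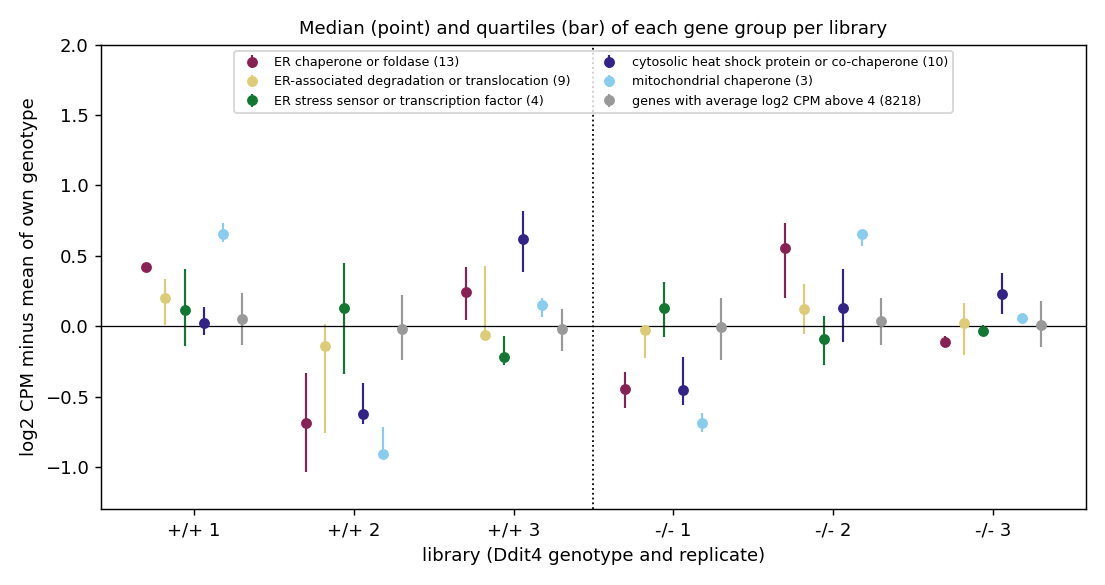
Median (point) and quartiles (bar) over the genes of each group of log2 CPM minus the mean of the library's own genotype, for the 6 libraries, with the 8218 genes of average log2 CPM over 4 in grey. In AE9a-Ddit4+/+ replicate 2 the medians are -0.68 for ER chaperones, -0.63 for cytosolic and -0.91 for mitochondrial chaperones. In AE9a-Ddit4-/- replicate 2 they are 0.56, 0.13 and 0.66. The grey points stay near 0, where scaling of the libraries keeps them.

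Further genes of the same pathways were read from lists written from general knowledge, with 129 of 130 genes tested. Of these, 7 were called higher and 21 lower, with a median log2 fold change of -0.26. Among the 8218 genes of average log2 CPM over 4, 15.1% were called higher and 17% lower, and among all genes tested 19.4% and 10.7%. The share of lower genes was thus near 17% and above 10.7%, and the share of higher genes was below both backgrounds. The counts of the single lists below are to be read beside these shares. In 20 genes of ER folding and glycoprotein quality control, 3 rose and 2 fell. The disulfide isomerase Pdia5 rose from 2.16 ± 1.19 to 26.6 ± 13 CPM (log2 3.62, edgeR adjusted p 0.00534), Txndc11 from 49.2 to 117 CPM and the oxidase Ero1b from 11.2 to 37.0 CPM, while Dnajc10, which reduces disulfides for ERAD, fell from 85.1 ± 3.67 to 48.6 ± 2.18 CPM and the membrane thioredoxin Tmx1 from 151 to 93.3 CPM. In 17 further ERAD genes 4 fell and 0 rose in edgeR (1 was higher at an unadjusted p below 0.05, and 1 in DESeq2). Among them were the p97 cofactor Nploc4 (log2 fold change -0.80, edgeR adjusted p 0.0148) and the conjugating enzyme Ube2g2 (-0.57, edgeR adjusted p 0.0363), both without the wide wild-type spread of the chaperones. In 16 genes of the translocon and of signal peptide processing, 3 fell and 0 rose in edgeR (1 was higher at an unadjusted p below 0.05, and 0 in DESeq2), namely Sec61g (-1.02), the signal peptidase subunit Spcs2 (-1.51) and the signal recognition particle gene Srp54a (-0.85).

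In 14 genes of the PERK and ATF4 arm, 1 rose and 2 fell. Asns, the asparagine synthetase that ATF4 induces, was at 59.8, 50.8 and 72.5 CPM in AE9a-Ddit4+/+ and at 5.41, 16.0 and 4.35 CPM in AE9a-Ddit4-/- libraries. The groups were far apart (log2 fold change -2.83, edgeR adjusted p 0.00667, SE 0.52). Ppp1r15b, which directs dephosphorylation of eIF2α, fell by 0.58 (edgeR adjusted p 0.0473), and the transcription factor Cebpb rose by 1.09 (edgeR adjusted p 0.0245). Atf4 itself and Ddit3, the gene of its target CHOP, named here after their values were seen, had log2 fold changes of 0.55 (edgeR adjusted p 0.125) and -0.28 (edgeR adjusted p 0.732). Of 8 tested genes of ATF6 processing and related membrane factors, 1 rose (Creb3l2, from 2.90 ± 1.52 to 28.5 ± 6.88 CPM) and 0 fell, also at an unadjusted p below 0.05 and in DESeq2.

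Of 28 further cytosolic HSP70, HSP90 and co-chaperone genes, 2 rose and 4 fell. The testis-enriched HSP70 Hspa2 rose by 1.41 and the small heat shock gene Hspb8, a partner of Bag3, by 3.54 (edgeR adjusted p 0.00217), from 0.533 ± 0.119 to 6.22 ± 2.45 CPM. Hspb8 and Hspb1 thus both rose while Bag3 fell. The HSP110 gene Hspa4l (-1.42), the J-domain gene Dnaja4 (-2.37, edgeR adjusted p 0.000592) and the heat shock factor Hsf2 (-1.26) fell. Of the 14 genes of the cytosolic chaperonin TRiC and prefoldin, 2 fell (Pfdn1 and Pfdn4) and 0 rose, with a median log2 fold change of -0.52. At an unadjusted p below 0.05, 5 of them were lower and 0 higher, and DESeq2 called 4 lower and 0 higher. The order of the ER chaperones was found here too, in genes named after their values were seen. Tcp1 and every Cct gene of the list except Cct4 had AE9a-Ddit4+/+ replicate 2 lowest and AE9a-Ddit4-/- replicate 2 highest in their genotype. So had Pfdn1 and Pfdn2, but not the other prefoldin genes. Of 12 mitochondrial chaperones and proteases, 4 fell, among them the inner membrane proteases Afg3l2 (-1.02) and Yme1l1 (-0.57) and the intermembrane protease Htra2 (-1.13), and 0 rose. At an unadjusted p below 0.05, 5 were lower and 0 higher, and DESeq2 called 4 lower and 0 higher.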

How the data were processed

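The authors deposited 1 table of whole-number counts per gene, with 1 column for each of the 6 libraries, and all columns with values per sample were used (0 were left out). The study names a directional kit for rRNA-depleted RNA, the labels an mRNA kit. The submitters' processing notes name GRCm38 (mm10). Aligner, counting tool, annotation and use of strand are not given in the sources used here. A spreadsheet had turned 27 symbols into dates, restored from the Ensembl identifiers. Positions and exon lengths were taken from GENCODE M21, and promoter windows from RefSeq (GRCm38.p6). Atf6, Derl1, Hsf1, Hsp90aa1, Hsp90ab1, Hspa8, Hspa9, Hyou1 and Manf had no promoter entry.

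Counts were tested with edgeR 4.0.16 in R 4.3.3 (filterByExpr, TMM factors, robust glmQLFit and glmQLFTest, genotype as the only term), with Benjamini-Hochberg adjustment over all genes tested and a threshold of 0.05. DESeq2 1.42.0 was an alternative, as were RLE scaling, library totals alone, other filters, counts divided by 4 (low values pile up at multiples of 4), mitochondrially encoded genes left out, a replicate block and each library left out in turn. The fit was tested on simulated data. CPM use TMM-scaled totals, and RPKM divide CPM by union exon length. Within-genotype deviations are on log2(CPM + 0.01). Intervals are at 95% from the fit, and 12 counts served as limit of detection, which covers counting error only. Library measures were compared by an exact permutation test, whose smallest p with 3 against 3 libraries is 0.1.

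The members and lists were chosen with earlier results of these data known. Values in every library are given for called members, for the 10 most abundant members and for Xbp1, Atf6, Ern1, Eif2ak3 and Hsf1, and beyond this rule for members that did not overlap between the groups. From each further list up to 3 called genes per direction with the highest mean CPM are named. A result that this rule names is not reported here. Ero1b is listed under its older symbol, and of 2 rows for Ddit3 the one with more counts was used. Marker lists covered plasma, B, T and NK, erythroid, neutrophil, monocyte, megakaryocyte, mast cell and stroma genes and immediate early genes. The immediate early genes summed to 3334 to 12105 CPM in AE9a-Ddit4+/+ and 16004 to 23520 CPM in AE9a-Ddit4-/- libraries (6 of 12 called higher).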

Additional observations from a re-analysis of the deposited data

How the results depend on the processing

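Under all alternatives run, Hsph1, Bag3, Hspb1 and Ddit4 remained called in the same direction. For the 26 ER genes, the number called lower (1) was 2 in DESeq2, 0 with the replicate block, 0 at an adjusted p below 0.01, and 0 to 5 when 1 library was left out. It was 5 without AE9a-Ddit4+/+ replicate 2 and 0 without any other library. Selenos lost its call with the replicate block (adjusted p 0.0997). The ER median log2 fold change ran from -0.44 without AE9a-Ddit4+/+ replicate 2 to 0.040 without AE9a-Ddit4+/+ replicate 1, where it changed sign, and it was -0.068 after the median of each gene's chromosome was taken off. For the 14 heat shock genes, the number lower (2) was 5 with library totals alone, 5 in DESeq2, 4 with counts divided by 4, and 2 to 6 with a library left out (6 without AE9a-Ddit4+/+ replicate 2, 4 without AE9a-Ddit4-/- replicate 2). The genes added were Hsp90aa1, Hsp90ab1, Hspe1 and, without AE9a-Ddit4+/+ replicate 2, Hspa8. The number higher (1) was 1 to 2, with Dnajb1 added without AE9a-Ddit4+/+ replicate 3. In the further lists, 7 higher became 11 in DESeq2, 4 at 0.01 and 5 to 9 with a library left out, and 21 lower became 6 with the replicate block, 6 at 0.01 and 9 to 26 with a library left out (9 to 12 for each library but AE9a-Ddit4+/+ replicate 2). Over all genes, 3560 higher became 2341 with at least 10 counts in every library, 2177 with the replicate block, 1964 at 0.01 and 2683 to 3943 with a library left out, and 1975 lower became 787 with the replicate block, 712 at 0.01 and 1089 to 2078 with a library left out (1168 without AE9a-Ddit4+/+ replicate 1, 1089 without replicate 3 and 1157 without AE9a-Ddit4-/- replicate 1). The cause of these shifts was not tested. Replicate numbers did not pair the libraries: deviations from the genotype means correlated at -0.27, -0.28 and 0.02 between libraries of the same number. Between libraries of unlike number they correlated at -0.13 to 0.31, the highest being AE9a-Ddit4+/+ replicate 2 with AE9a-Ddit4-/- replicate 1. The -0.28 is that of the second replicates over 8218 genes, so their opposite deviations were not confined to the chaperones. The call of Hspa5 turned on AE9a-Ddit4+/+ replicate 2 (adjusted p 0.0458 without it, 0.251 with all libraries).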
